A study of Mus musculus with 231 samples.

Results

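The miR-34 family was followed in small RNA sequencing of peripheral blood mononuclear cells (PBMC) from mice in which the leukemogenic fusion Cbfb-MYH11 (CM) was switched on, and from control (Ctrl) littermates. The members were chosen by name: mmu-miR-34a-5p, mmu-miR-34b-5p, mmu-miR-34b-3p, mmu-miR-34c-5p and mmu-miR-34c-3p. All 5 were present in each of the 3 deposited tables, among 1863 miRNAs in the training counts, 1895 in the normalised training values and 1817 in the normalised validation values, over 231 libraries. Of the 5, miR-34a-5p and miR-34c-5p were abundant enough to be tested, and the other 3 had at most 9 counts in any training library.

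CM mice were C57BL/6 conditional knock-ins (Cbfb56M/+/Mx1-Cre), in which Cre is driven by the interferon-responsive Mx1 promoter. They received polyinosinic-polycytidylic acid, an inducer of interferon, by intraperitoneal injection at 6 to 8 weeks of age, with 7 doses of 14 mg/kg on alternate days. Ctrl littermates received the same injections, so both arms carry that exposure. All CM mice had the genotype code CHW, whereas the Ctrl mice carried CW, HW or WT (4, 2 and 1 of the 7 training mice). The codes are not explained, and the labels describe controls without the transgene whereas the study's methods describe littermates without Cre. The training cohort held 7 CM mice (53 libraries, 4 females) and 7 Ctrl mice (76 libraries, 2 females), sampled before induction (month 0) and monthly for up to 10 months. The validation cohort held 10 CM mice (60 libraries) and 6 Ctrl mice (42 libraries) by the sample labels, against 9 and 7 in the series description.

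MicroRNAs are short RNAs that pair with messenger RNAs, mainly through bases 2 to 8 (the seed), and lower their translation and stability. The miR-34 genes are direct transcriptional targets of the tumour suppressor p53, and the 5p strands act on messengers for cell cycle and survival proteins such as CDK6, cyclin E2, MET and BCL2. Mir34a is transcribed by itself and is found in many tissues, whereas Mir34b and Mir34c are processed from a common transcript best known from ciliated epithelia and testis. The miR-449 family, also known from ciliated cells, shares the miR-34 seed.

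Of the 5 members, 4 had a mature sequence in the RefSeq table used (GRCm38.p6). These are shown beside miR-34a-3p and miR-449a-5p, with bases 2 to 8, the seed, in capitals because the seeds are compared below. The sequence of miR-34c-5p was not analysed here.
mmu-miR-34a-5p: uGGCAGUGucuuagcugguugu
mmu-miR-34b-5p: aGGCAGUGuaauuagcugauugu
mmu-miR-34b-3p: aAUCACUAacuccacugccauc
mmu-miR-34c-3p: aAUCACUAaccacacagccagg
mmu-miR-34a-3p: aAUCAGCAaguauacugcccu
mmu-miR-449a-5p: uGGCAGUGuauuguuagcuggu
The 5p strands of miR-34a and miR-34b and the relatives miR-449a-5p (chr13:113037549-113037570, plus strand) and miR-449c-5p shared the seed GGCAGUG, and these were the 4 of 1679 mature miRNAs in the table that held it. The 3p strands of miR-34b and miR-34c shared a different seed, AUCACUA, which no other miRNA in the table held. They were identical at 17 of 22 positions. Counted from 1 at the 5′ end of miR-34b-3p, the differences were U11C, C12A, U16A, U21G and C22G, all outside the seed. The strand opposite miR-34a-5p on its hairpin, miR-34a-3p (chr4:150068517-150068537, plus strand), had the seed AUCAGCA, held by no other miRNA in the table.

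On GRCm38.p6, miR-34a-5p lay at chr4:150068473-150068494 on the plus strand, in the Mir34a hairpin, between the annotated genes Gm13067 and Gpr157. The strands of miR-34b lay at chr9:51103610-51103632 (5p) and chr9:51103574-51103595 (3p), and miR-34c-3p at chr9:51103044-51103065, all on the minus strand. The Mir34b and Mir34c hairpins were 451 bases apart and both lay within the annotated intervals of Hoatz and Btg4. Whether those positions are exonic or intronic was not analysed here. The files hold no coordinates, and the sources differ on the build the reads were aligned to (mm9 in the methods, GRCm38 in the labels).

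Training libraries held 1792809 to 7958411 miRNA counts. In the validation cohort 12 libraries of sampling point 5 held 1645456 to 5445215 reads, and the other 90 held 1744 to 76906. In the labels of mice 3334 (CM) and 3335 (Ctrl), sample numbers cross between both mice from month 6 on, so tests are also given without that pair. A pair of CM libraries is titled T6p5 but labelled month 6 in the characteristics, and these were kept apart. PBMC are a mixture of cells, so a lower level from fewer cells of a type and one from less of the miRNA per cell cannot be told apart. As a check of the labelled tissue, the 3 lymphocyte miRNAs (both strands of miR-150, and miR-342-3p) summed to between 7682.77 and 92240.5 counts per 1000000 (CPM) over the training libraries, above 0 in each.

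Levels are given as CPM after TMM scaling, which adjusts library sizes for composition. Over the 53 CM and 76 Ctrl training libraries miR-34a-5p averaged 94.4 CPM (median 375 and at most 2880 counts), rank 178 of 1863. The level of miR-34c-5p averaged 10.1 CPM (4 to 659 counts), rank 331. By contrast, miR-34b-5p, miR-34b-3p and miR-34c-3p averaged 0.178, 0.212 and 0.124 CPM and had a count above 0 in 61, 71 and 50 libraries. A library at 0 allows up to 0.377 to 1.67 unscaled CPM (3 counts of its total), so those 3 were near or below what 1 library could show.

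At months 1 and 2 after induction miR-34a-5p was lower in every CM mouse than in every Ctrl mouse. It was 59.6 to 90.7 CPM in CM and 69.99 to 125.1 CPM in Ctrl before induction, ranges that overlapped. One month later the 7 CM mice held 45.3, 44.2, 44.4, 42.6, 45.2, 39.7 and 47.9 CPM (mean 44.2 ± 2.55, SD), in the order 3334, 3336, 3338, 3341, 3357, 3368 and 3370. The 7 Ctrl mice held 88.99, 96.6, 98.2, 81.3, 87.4, 90.8 and 105.2 CPM (mean 92.6 ± 7.90), in the order 3335, 3339, 3340, 3342, 3346, 3349 and 3350. The arms did not overlap, and the SD within CM was smaller than within Ctrl. How many of all tested miRNAs kept the arms apart in this way was not counted, at this or any later month.

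The difference at month 1 was −1.10 on the log2 scale (SE 0.113, edgeR quasi-likelihood test, adjusted p = 1.1e-05), or 2.14-fold lower in CM. In that comparison 27.5 percent of 472 tested miRNAs passed the same threshold of 0.05, and 1 of the 2 tested members did. Without mice 3334 and 3335 the difference was −1.12 (adjusted p = 0.000125). All 14 fits that left out 1 mouse kept it, between −1.13 and −1.03.

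The same separation held at month 2. CM mice had 42.5, 49.9, 48.5, 55.6, 47.4 and 49.03 CPM (mean 48.8 ± 4.24, n = 6) for miR-34a-5p, without 3334, which had no library. Ctrl mice ranged from 83.9 to 156 CPM with a median of 97.01 (n = 7). All 6 CM mice were below the lowest Ctrl mouse. The log2 difference was −1.11 (SE 0.170, edgeR, adjusted p = 0.0020), where 13.5 percent of 481 miRNAs were called and both tested members were. Without mice 3334 and 3335 it was −1.20 (adjusted p = 0.0039). Titles carry a G number whose meaning is not stated, and only 2 of its 7 values held both arms at month 2. With it as a covariate the call was lost (−1.02, adjusted p = 0.14), whereas at month 1 it was kept (−1.07, adjusted p = 0.0046).

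**Figure D1:**
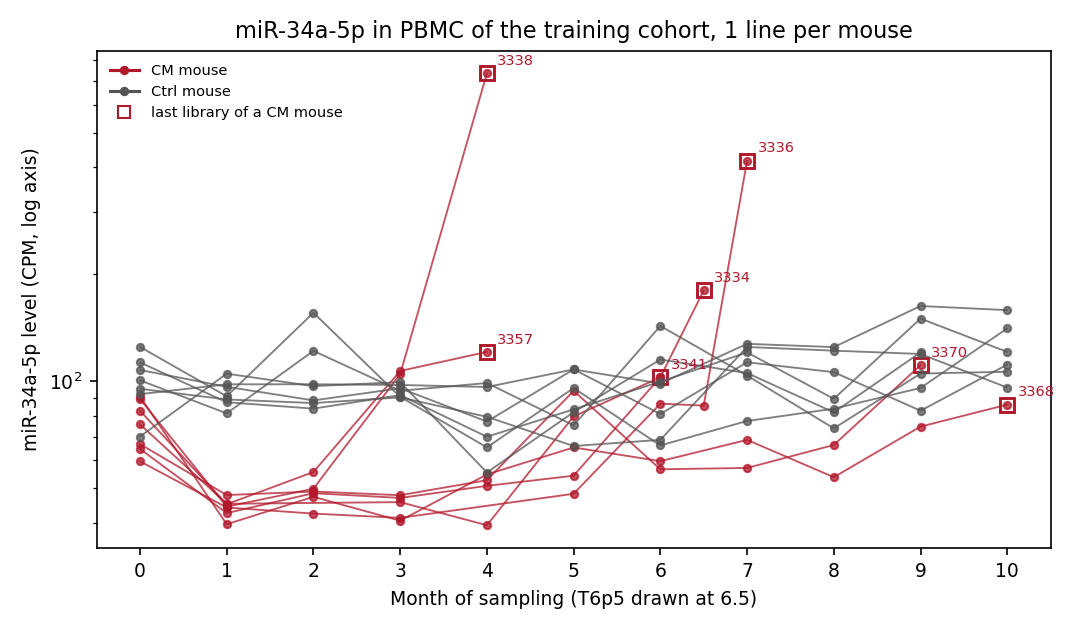
Level of miR-34a-5p (CPM, log axis) by month of sampling, 1 line per training mouse, with CM in red, Ctrl in grey and an open square at the last library of each CM mouse. At months 1 and 2 every CM mouse lies below every Ctrl mouse, and the highest last libraries are those of 3338 (736 CPM), 3336 (418 CPM) and 3334 (180 CPM).

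From month 3 the CM mice parted from each other. Mice 3338 and 3357 held 104.9 and 107.03 CPM of miR-34a-5p at month 3, above all Ctrl mice (90.2 to 99.6 CPM), while the other 5 held 40.6 to 47.9 CPM, below all Ctrl mice. The log2 difference was −0.56 (SE 0.223, edgeR, adjusted p = 0.079), and it passed the threshold without 3338 (−0.71, adjusted p = 0.027) or without 3357 (−0.74, adjusted p = 0.020). At month 4 mouse 3338 reached 736 CPM (2880 counts), the highest value of the cohort, against 39.4 to 121.1 CPM in the other 5 CM mice and 55.4 to 98.98 CPM in Ctrl. That mouse set the sign of the comparison, which was +1.34 with it (SE 0.655, adjusted p = 0.31) and −0.32 without it (adjusted p = 0.71). At months 5 and 6 the ranges overlapped, with differences of −0.34 (adjusted p = 0.33) and −0.26 (adjusted p = 0.79).

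Months 0 and 1 were compared within each arm. Between month 0 and month 1 miR-34a-5p was lower in 7 of 7 CM mice (month 1 over month 0, median 0.598) and in 5 of 7 Ctrl mice (median 0.897). The change, fitted without pairing by mouse, was −0.75 in CM (SE 0.133, edgeR, adjusted p = 0.0050). There 12.7 percent of the tested miRNAs were called, both tested members among them. The unpaired change was −0.17 in Ctrl (SE 0.123, adjusted p = 0.49), where 0.630 percent of 476 miRNAs were called. With the mouse as a block the changes were −0.74 in CM (edgeR, adjusted p = 0.040) and −0.16 in Ctrl (adjusted p = 0.69). The difference between the unpaired changes was −0.55 (SE 0.174, adjusted p = 0.049), in a comparison with 8.46 percent of 520 miRNAs called. It did not hold with the mouse as a block (adjusted p = 0.15), without mice 3334 and 3335 (adjusted p = 0.089), or without 3338, 3350 or 3368 (adjusted p = 0.059, 0.085 and 0.10). At month 0 itself the arms differed by −0.44 (SE 0.140, unadjusted p = 0.0070 in edgeR, adjusted p = 0.26), where 0.209 percent of 478 miRNAs were called.

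Late in the course the level of miR-34a-5p rose in CM relative to month 0. In the last library of each CM mouse it was 180, 418, 736, 102.8, 121.1, 86.1 and 111.1 CPM, in the same order of mice, against 75.7, 59.6, 89.3, 64.6, 82.7, 90.7 and 66.6 CPM in those mice at month 0. It was higher in 6 of the 7 mice, and 3368, the mouse sampled longest, was the exception (0.949 of its month 0 level). Against Ctrl of the same month, 3338 and 3357 were above the range (55.4 to 98.98 CPM at month 4). So was 3336 (77.4 to 127.6 CPM at month 7). Mice 3341 and 3370 were within it (66.1 to 143 CPM at month 6, 82.7 to 163 CPM at month 9). Mouse 3368 was below it (96.1 to 159 CPM at month 10). The T6p5 library of 3334 was above the month 6 range. The last CM libraries were not tested against Ctrl. The difference from month 0 was +1.98 (SE 0.507, edgeR, adjusted p = 0.0081), or 3.94-fold. With the mouse as a block it was +1.38 (adjusted p = 0.045), and without 3338 +1.397 (adjusted p = 0.027). Without mice 3334 and 3335 it was +1.98 (adjusted p = 0.019). Both tested members were called here, in opposite directions, where 39.0 percent of 446 miRNAs were called.

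Against the library just before it, the last library held more miR-34a-5p in 7 of 7 CM mice (ratio 1.13 to 7.02, median 1.76) and in 4 of 7 Ctrl mice (0.804 to 1.47, median 1.01). This comparison was chosen after the values were seen and carries no test. The largest ratios were those of 3338 (104.9 to 736 CPM) and 3336 (85.5 to 418 CPM). In Ctrl mice miR-34a-5p at month 6 did not differ detectably from month 0 (−0.03, SE 0.208, adjusted p = 0.93), where 20.5 percent of 474 miRNAs were called, and at months 7 to 10 it ranged from 73.8 to 163 CPM.

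The libraries with the highest miR-34a-5p were not high in the rest of the family. In 3338 at month 4 miR-34c-5p was 5.88 CPM (23 counts), and the 3 low members and miR-34a-3p had 0, 0, 0 and 1 counts. In 3336 at month 7 miR-34c-5p was 2.31 CPM (8 counts), while miR-34a-3p had 6 counts in the count table, near its cohort maximum of 8, and 1 read in the deposited CPM. Lymphocyte miRNAs in those 2 libraries summed to 11049 and 27769 CPM, against a cohort median of 39952, and epithelial miRNAs to 937 and 1101 CPM, against a median of 2250. Other miRNAs that p53 is known to raise summed to 9982 and 30670 CPM (median 20575), and those that target the p53 messenger to 14801 and 14807 CPM (12737). Sums of erythroid miRNAs were 29305 and 62083 CPM (83346), and of myeloid miRNAs 4644 and 3066 CPM (5720). Ciliated epithelial miRNAs reached 9.71 and 8.08 CPM (8.47) and hepatocyte miRNAs 1.02 and 0.866 CPM (2.06). Over all 7 last CM libraries against month 0, 2 of 3 lymphocyte miRNAs (list median −0.88) and 1 of 2 myeloid miRNAs (−1.17) were lower. Of 5 erythroid miRNAs 2 were higher and 1 lower, and of 8 epithelial miRNAs 1 was higher and 2 lower. In that comparison 39.0 percent of all 446 tested miRNAs were called. The part of cell composition in the miR-34a-5p rise was not tested.

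The second measured member, miR-34c-5p, was lower in both arms at month 1 than before induction, and at months 2 and 3 was lower in CM than in Ctrl. Before induction it was 9.84 to 21.2 CPM in CM and 9.38 to 26.6 CPM in Ctrl. At month 1 it was 2.04 to 11.2 CPM in CM and 4.37 to 10.5 CPM in Ctrl, lower than at month 0 in 7 of 7 mice of each arm (median ratios 0.526 and 0.522). The changes were −1.24 in CM (SE 0.303, edgeR, adjusted p = 0.024) and −1.25 in Ctrl (SE 0.235, adjusted p = 0.022). With the mouse as a block neither call was kept (adjusted p = 0.051 in CM and 0.23 in Ctrl). The CM call was lost without 3338, 3368 or 3370 (adjusted p = 0.082, 0.086 and 0.063) and the Ctrl call without 3335, 3339, 3346, 3349 or 3350 (adjusted p = 0.051 to 0.1007). Between the arms, month 1 differed by −0.53 (SE 0.296, adjusted p = 0.20), and without 3357 by −0.78 (adjusted p = 0.048). The difference between the changes was 0.03 (adjusted p = 0.97), and its sign was not stable across settings.

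The arms separated at month 2. CM mice had 6.29, 4.67, 3.45, 4.44, 2.44 and 3.38 CPM of miR-34c-5p (10 to 29 counts), in the order 3336, 3338, 3341, 3357, 3368 and 3370. Ctrl mice ranged from 10.0 to 21.1 CPM with a median of 12.2 CPM. All 6 CM mice were below the lowest Ctrl mouse, and the difference was −1.69 (SE 0.267, edgeR, adjusted p = 0.0021), or 3.23-fold lower. In that comparison 13.5 percent of 481 miRNAs were called, and the share that kept the arms apart was not counted.

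At month 3 the 7 CM mice had 1.01 to 5.67 CPM (median 4.38, 4 to 20 counts) and the 7 Ctrl mice 6.53 to 21.2 CPM (median 10.2), again without overlap. The difference was −1.67 (SE 0.337, edgeR, adjusted p = 0.0036), in a comparison with 22.0 percent of 455 miRNAs called and 1 of the 2 tested members. All fits that left out 1 mouse kept both months. Without mice 3334 and 3335 the month 2 difference was −1.76 (adjusted p = 0.0032). The month 3 difference without that pair was −1.77 (adjusted p = 0.0079). With the G number as a covariate neither month was kept (adjusted p = 0.19 and 0.30), and at month 3 only 1 of 5 G numbers held both arms. At month 4, 5 of 6 CM mice were below the lowest Ctrl mouse and the difference of −1.34 (SE 0.311) had an adjusted p of 0.056, where 0.837 percent of 478 miRNAs were called and neither member was. Without Ctrl mouse 3346 it passed (−1.53, adjusted p = 0.029).

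**Figure D2:**
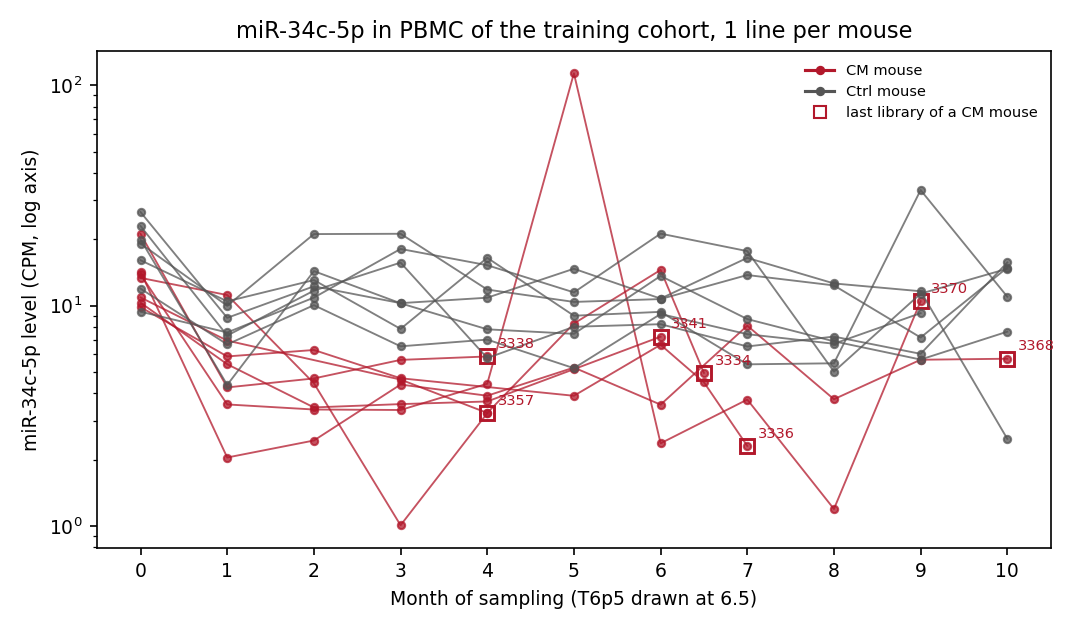
Level of miR-34c-5p (CPM, log axis) by month of sampling, 1 line per training mouse, drawn as for miR-34a-5p. Every CM mouse lies below every Ctrl mouse at months 2 and 3, and the single point at 113.2 CPM is the month 5 library of CM mouse 3370.

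One library stood apart. CM mouse 3370 had 113.2 CPM of miR-34c-5p at month 5 (659 counts), against 4.42 CPM at its month 4 and 2.37 CPM at its month 6, and against 3.90 to 8.29 CPM in the other CM mice of month 5. The next highest value of the cohort was 33.4 CPM, in Ctrl mouse 3340 at month 9. The 2 strands of miR-34b were also at their cohort maxima in it (9 and 7 counts), whereas miR-34a-5p was 94.1 CPM, within the range of the Ctrl mice. It was the only training library with more miR-34c-5p than miR-34a-5p. The month 5 difference between the arms was +1.53 with it (SE 0.771, adjusted p = 0.28) and −0.71 without mouse 3370 (adjusted p = 0.23). At month 5 edgeR called 0 percent of 505 miRNAs, with 21.6 percent at an unadjusted p under 0.05 and 21 miRNAs called by DESeq2. Epithelial miRNAs summed to 5902 CPM in this library, more than in the other 52 CM libraries, with 4 Ctrl libraries higher. Myeloid and hepatocyte miRNAs summed to 10556.5 and 5.84 CPM against cohort medians of 5720 and 2.06. Also above their medians were ciliated epithelial (12.9 against 8.47 CPM), erythroid (150723 against 83346), lymphocyte (49777 against 39952) and p53-induced miRNAs (51317 against 20575). Those that target the p53 messenger were below (11689 against 12737 CPM). Their part was not tested.

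At month 6 miR-34c-5p was 2.37 to 14.5 CPM in 5 CM mice and 8.23 to 21.2 CPM in Ctrl (−0.79, SE 0.417, adjusted p = 0.71). There edgeR and DESeq2 called 0 percent of 444 miRNAs, with 31 at an unadjusted p under 0.05 in edgeR. In the last CM libraries it was 4.95, 2.31, 5.88, 7.22, 3.25, 5.74 and 10.5 CPM, each below the same mouse's month 0. That change was −1.11 (SE 0.293, edgeR, adjusted p = 0.0090), opposite in sign to that of miR-34a-5p, and it was kept with the mouse as a block (−1.18, adjusted p = 0.018) and without mice 3334 and 3335 (−1.16, adjusted p = 0.021). In Ctrl month 6 differed from month 0 by −0.57 (SE 0.277, adjusted p = 0.16), and without 3342 by −0.92 (adjusted p = 0.0085).

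**Figure D3:**
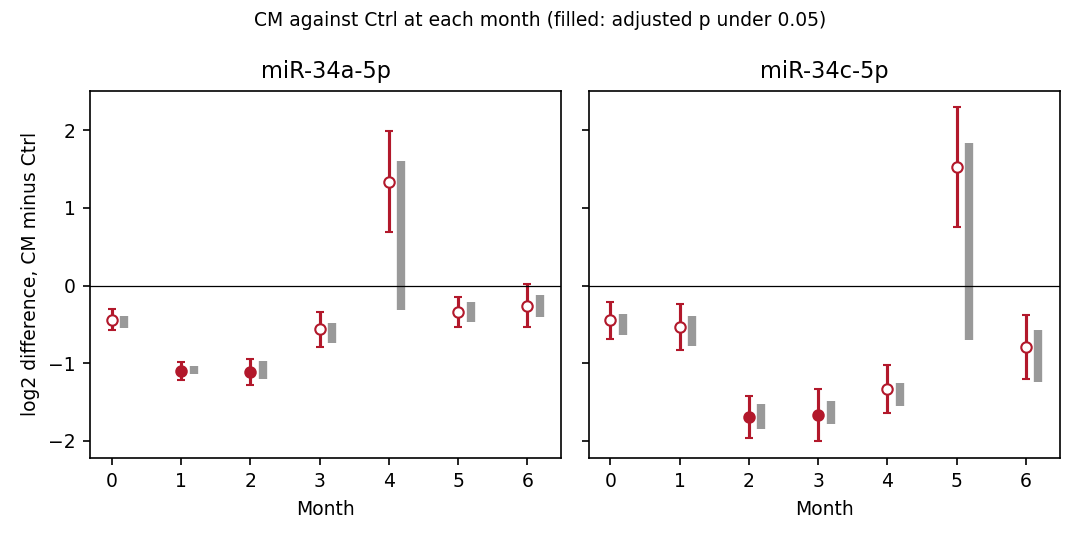
Log2 difference between CM and Ctrl at each month for miR-34a-5p and miR-34c-5p, with SE bars, filled where the adjusted p was under 0.05, and grey bars for the range when 1 mouse is left out. The wide grey bars at month 4 for miR-34a-5p (−0.32 to 1.60) and month 5 for miR-34c-5p (−0.71 to 1.83) reach across 0.

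With 1 value per mouse, the mean of log2(CPM + 1) over months 1 to 6, both tested members were lower in CM. CM mice 3338 and 3357 gave 4 libraries each, and 3334 and 3336 gave 5, against 6 in every Ctrl mouse. The months covered therefore differ between the arms, in these means and in the slopes below. For miR-34a-5p the means were 5.68 to 6.86 in CM and 6.33 to 6.66 in Ctrl, and 3338 was the only CM mouse above the lowest Ctrl mouse. The difference was −0.51 (SE 0.157, limma, adjusted p = 0.020), and with no filter on low values the adjusted p was 0.057. For miR-34c-5p the means were 2.16 to 2.95 in CM and 3.05 to 3.86 in Ctrl, with no overlap (−0.93, SE 0.155, limma, adjusted p = 0.00049). Of 608 miRNAs 33.9 percent were called in that comparison. Without mice 3334 and 3335 the differences were −0.52 (adjusted p = 0.033) and −0.97 (adjusted p = 0.00087). Slopes over months 0 to 6 did not separate the arms, at +0.21 log2 a month for miR-34a-5p (adjusted p = 0.52) and −0.09 for miR-34c-5p (adjusted p = 0.69). There limma called 0 percent of 608 miRNAs, with 53 at an unadjusted p under 0.05, and no other setting tried called any.

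The 3 low members were compared mainly by pooling counts. At month 0 miR-34b-3p had 19 counts in Ctrl, with 1 or more in 7 of 7 mice, and 6 in CM, with 1 or more in 4 of 7. This gave 0.566 unscaled CPM (counts over total counts) in Ctrl (exact Poisson 95% interval 0.341 to 0.884) and 0.200 in CM (0.0734 to 0.435). Over months 1 to 6 it was 0.227 unscaled CPM in Ctrl (46 counts in 42 libraries, 0.166 to 0.303) and 0.157 in CM (27 counts in 36 libraries, 0.104 to 0.229). Without the month 5 library of 3370, CM over those months was at 0.121 (20 counts, 0.0738 to 0.187). The intervals of the arms overlap at month 0 and over months 1 to 6, and all cover counting error only.

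For miR-34b-5p the pooled level over months 1 to 6 was 0.158 unscaled CPM in Ctrl (32 counts, 0.108 to 0.223) and 0.140 in CM (24 counts, 0.0896 to 0.208). Without the month 5 library of 3370, which gave 9 of the 24 counts, CM was at 0.0907 (0.0507 to 0.150). The level of miR-34c-3p was 0.138 unscaled CPM in Ctrl (28 counts, 0.0918 to 0.200) and 0.0932 in CM (16 counts, 0.0533 to 0.151). The pooled counts were not tested between the arms, and overlap of such intervals is not a test. Per-mouse means over months 1 to 6, tested without the filter, gave no call for the 3 low members (limma, adjusted p = 0.29 to 0.45). When the filter on low counts was removed, 1 of the comparisons called a low member, miR-34b-3p in Ctrl at month 6 against month 0 (−3.08, edgeR, adjusted p = 0.029).

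**Figure D4:**
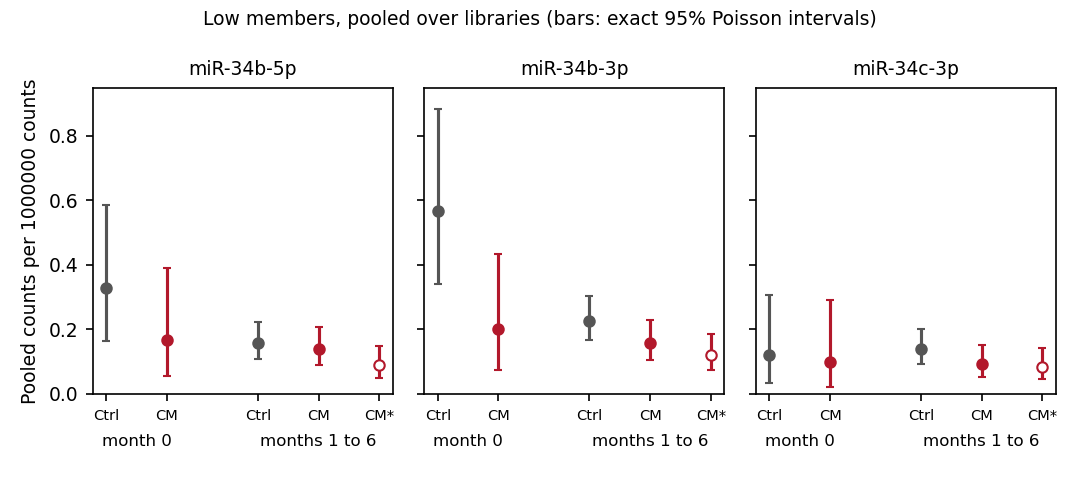
Pooled counts per 1000000 counts of the 3 low members by arm at month 0 and over months 1 to 6, with exact 95% Poisson intervals. CM* is CM over months 1 to 6 without the month 5 library of mouse 3370. The highest value is miR-34b-3p in Ctrl at month 0 (0.566), and the intervals of both arms overlap in each panel.

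The strand opposite miR-34a-5p and the miRNAs sharing its seed were read beside the family. With 0 to 8 counts a library, miR-34a-3p was at 0.301 unscaled CPM in Ctrl (61 counts, 0.230 to 0.387) and 0.0932 in CM (16 counts, 0.0533 to 0.151) over months 1 to 6. These intervals do not overlap, but they cover counting error only and pool repeated libraries of the same mice. By mouse the arms overlapped, at 0 to 0.151 unscaled CPM in CM and 0.105 to 0.491 in Ctrl. The mean of miR-34a-3p over months 1 to 6, tested without the filter, was lower in CM by 0.25 on the log2(CPM + 1) scale (limma, adjusted p = 0.015). Settings other than the main one called 181 to 220 miRNAs in that comparison. The strand had a median count of 0 in CM and 1 in Ctrl libraries, near the floor of that scale. The deposited training CPM held less of this strand, with means of 0.0834 in Ctrl and 0.0409 in CM against 0.450 and 0.179 CPM from the counts, so its level depends on the table. Why the tables differ was not tested. Sharing the seed GGCAGUG, miR-449a-5p averaged 9.14 CPM, close to miR-34c-5p. Its means over months 1 to 6 were higher in CM by 0.39 (SE 0.142, limma, adjusted p = 0.044), and no single month passed the threshold. That call was kept in 3 of the 14 fits that left out 1 mouse (adjusted p = 0.022 to 0.095). The level of miR-449c-5p was 0.286 CPM from the counts and 0.0681 in the deposited CPM, and miR-449b had 12 counts over all training libraries.

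Other miRNAs that p53 is known to raise were read from a list of 12. At month 1, 2 of 12 p53-induced miRNAs tested were higher in CM than in Ctrl and 0 lower, a smaller share than the 27.5 percent of all miRNAs called there, with a median of −0.04 against −0.10 over all. The 2 that were higher in CM than in Ctrl were miR-215-5p (+2.20, SE 0.431, edgeR, adjusted p = 0.0052) and miR-205-5p (+1.84, SE 0.536, adjusted p = 0.022). Within CM, month 1 against month 0, 1 of the 12 was higher and 0 lower. At month 3 miR-215-5p was higher (+1.48, adjusted p = 0.018) and miR-200c-3p (−1.28), miR-141-3p (−1.17) and miR-22-3p (−0.41) were lower. The first and second of these, and miR-205-5p, are also in the epithelial list. In the last CM libraries against month 0, 3 of the 12 rose, miR-107-3p by 1.75, miR-215-5p by 1.26 and miR-192-5p by 0.97, and 2 fell, miR-141-3p and miR-200c-3p. These 5 of 12 are close to the 39.0 percent of all miRNAs called in that comparison. Of 4 miRNAs that target the p53 messenger, 3 had higher means over months 1 to 6 in CM, miR-125b-5p (+0.72), miR-504-5p (+0.54) and miR-25-3p (+0.36), with a median of +0.45 against −0.02 over all and 33.9 percent of all miRNAs called. Of the 12 p53-induced miRNAs 2 were higher and 3 lower in those means. Single months called 1 of the 4 at month 1, 1 at month 3 and 0 at the others, and the last CM libraries 0.

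Marker miRNAs of blood and other cells moved in the same months. At month 1 all 5 erythroid miRNAs were higher in CM (median +2.46), and their summed level was 53345 to 621976 CPM in CM against 28288 to 69645 CPM in Ctrl. Of the 8 epithelial miRNAs 2 were higher at month 1, miR-205-5p and miR-375-3p. None of the 3 lymphocyte, 2 myeloid or 1 hepatocyte markers was called there, with medians of −0.29, −0.62 and −0.80, nor was the 1 tested of 3 ciliated epithelial markers (+0.84). At month 2, when both members separated, 2 of 5 erythroid miRNAs were higher (list median +0.92) and 1 of 8 epithelial miRNAs lower (−0.63), with 13.5 percent of all miRNAs called and none of the lymphocyte, myeloid, ciliated or hepatocyte markers. At month 3, when 22.0 percent of all were called, 4 of 5 erythroid miRNAs and 1 of 2 myeloid miRNAs were higher and 1 of 3 lymphocyte miRNAs lower. In that month 3 of the 8 epithelial miRNAs were lower, with a summed level of 1461 to 2794 CPM in CM and 2251 to 8293 CPM in Ctrl. The part of these in the miR-34 differences was not tested.

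Over all training libraries (53 CM and 76 Ctrl), the miRNAs whose log2 level was most like that of miR-34a-5p were miR-700-5p (Pearson r = 0.58), miR-26a-2-3p (0.57), let-7b-5p (0.51), miR-30b-3p (0.50) and miR-324-3p (0.50), among 330 compared. Within arms these values parted, at 0.59, 0.70, 0.43, 0.69 and 0.31 in CM and 0.50, 0.39, 0.61, 0.24 and 0.58 in Ctrl, in the same order. For miR-34c-5p they were miR-200c-3p (0.63), miR-200b-3p (0.57), miR-200a-3p (0.53), miR-429-3p (0.53) and miR-141-3p (0.51), which are 5 of the 8 miRNAs of the epithelial list. Within CM libraries these 5 values were 0.44 to 0.59, and within Ctrl 0.44 to 0.62. Libraries of one mouse are not independent and share depth and scaling, so these are descriptions. The correlation of miR-34a-5p with miR-34c-5p was 0.33 over all libraries, 0.14 in CM and 0.23 in Ctrl.

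In the validation cohort only point 5 was deep enough for the family. Reads were recovered from the deposited values, which were whole multiples of 1 read. At point 5 the 6 CM mice had 130.7, 44.2, 31.04, 62.99, 38.1 and 26.1 reads per 1000000 reads (RPM) of miR-34a-5p (43 to 675 reads), in the order 2684, 2685, 2686, 2700, 2709 and 2718. The 6 Ctrl mice had 57.3 to 79.7 RPM with a median of 65.3. On this scale 4 CM mice were below every Ctrl mouse, 1 was within their range and 1 above it. On the deposited CPM scale, which is TMM-scaled, the CM mice held 1873, 504, 278, 1024, 608 and 158 CPM and the Ctrl mice 566 to 913 CPM (means 741 and 729), so that 3 CM mice were below, 1 within and 2 above the Ctrl range. There the log2 difference was −0.40 (SE 0.447, limma, adjusted p = 0.95), and edgeR on the recovered reads gave −0.03 (adjusted p = 0.97).

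For miR-34c-5p at point 5 the CM mice had 2.32, 7.45, 3.33, 6.79, 4.06 and 7.90 RPM (12 to 37 reads) and the Ctrl mice 8.58 to 18.4 (32 to 88 reads). All 6 CM mice were below the lowest Ctrl mouse on this scale, whereas the deposited CPM, 29.8 to 110 in CM and 77.99 to 226 in Ctrl, overlapped. The difference was −1.04 (SE 0.415, limma, unadjusted p = 0.020, adjusted p = 0.82), and edgeR on the recovered reads gave −0.99 (adjusted p = 0.29). In that comparison limma called 0 percent of 930 miRNAs, with 54 at an unadjusted p under 0.05, and edgeR on recovered reads also called 0, with 70. How many of all miRNAs kept the arms apart in RPM was not counted, so the separation of miR-34c-5p cannot be weighed against that share. The low members had 6 (miR-34b-5p), 21 (miR-34b-3p) and 6 (miR-34c-3p) reads over the 12 libraries.

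**Figure D5:**
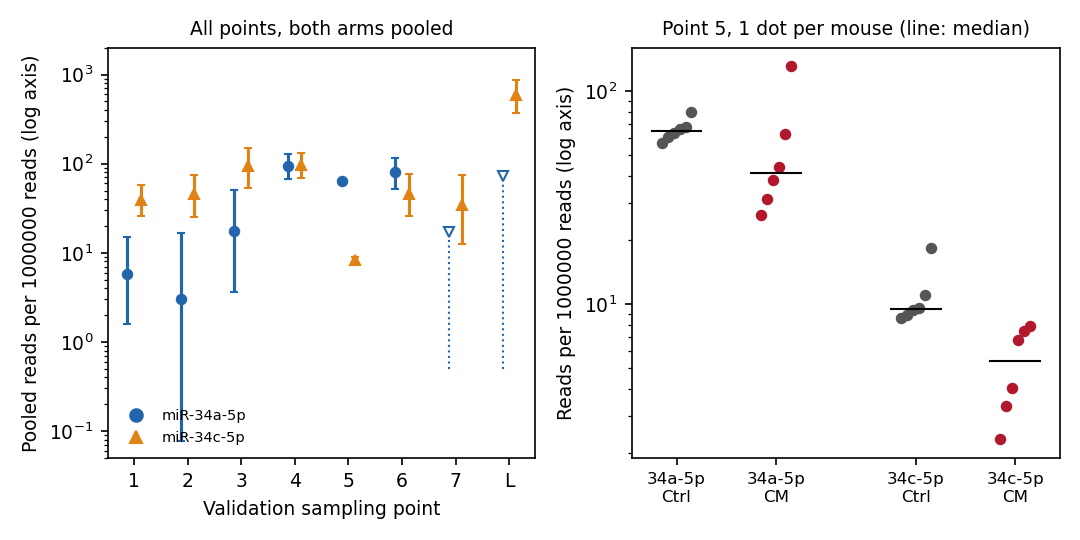
Left, pooled reads per 1000000 reads of miR-34a-5p (circles) and miR-34c-5p (triangles) at each validation sampling point on a log axis, with exact 95% Poisson intervals and open triangles at the limit that 0 reads allow. Right, both at point 5 by arm, 1 dot per mouse with the median as a line on a log axis. The 5 CM libraries of point L, pooled, have 584 reads per 1000000 of miR-34c-5p and none of miR-34a-5p. At point 5 every CM mouse lies below every Ctrl mouse for miR-34c-5p on this scale, whereas the arms overlap on the deposited CPM scale.

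The other 90 validation libraries held 0 to 6 reads of miR-34a-5p and 0 to 15 of miR-34c-5p each. Levels differed widely between these points, so a value pooled over them mixes unlike libraries. Pooled, they had 73 reads of miR-34a-5p in 2147826 (33.99 RPM, exact Poisson 95% interval 26.6 to 42.7) and 143 of miR-34c-5p (66.6, 56.1 to 78.4). More miR-34c-5p than miR-34a-5p was seen in 45 of them, less in 19 and equal numbers in 26, of which 18 had none of either. At point 5, by contrast, all 12 libraries had more miR-34a-5p, as did all training libraries but 1. At points 1 and 2 miR-34a-5p was at 5.82 (1.58 to 14.9) and 3.02 (0.0765 to 16.8) RPM and miR-34c-5p at 39.3 (25.9 to 57.1) and 45.3 (25.4 to 74.7). The order was not the same at every point. At point 4 the levels were close, 94.2 RPM (67.02 to 128.8) of miR-34a-5p and 96.7 (69.1 to 131.6) of miR-34c-5p. There the library of CM mouse 2719 gave 15 of the 40 miR-34c-5p reads and 0 of the 39 miR-34a-5p reads, so the closeness rests on 1 library. At point 6 miR-34a-5p was the higher, at 79.8 (52.1 to 116.9) against 46.04 (25.8 to 75.9), intervals that overlap. Points 4 and 6 gave 39 and 26 of the 73 miR-34a-5p reads, and point 7 gave 0, beside 33.98 RPM of miR-34c-5p. Across the 90, miR-34b-5p and miR-34c-3p had 0 reads, which allows up to 1.397 RPM, and miR-34b-3p had 1.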

How the data were processed

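PBMC small RNA libraries of the training cohort (129) and validation cohort (102) were analysed. Counts deposited by the authors (mirTOP) were used for training libraries. The deposited CPM in both cohorts were made by the authors with TMM scaling in edgeR, after adapter trimming with cutadapt and alignment with Bowtie (per the labels and the study's methods). In both CPM tables the deposited signal of every library was a whole multiple of 1 read (within 0.02 reads for 100% of values), so reads were recovered.

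Counts were tested with edgeR 4.0.16 (TMM, filterByExpr, quasi-likelihood test, two-sided, Benjamini-Hochberg over all tested miRNAs, threshold 0.05), with SE taken as the log2 change over the square root of F. Per-mouse means and slopes, and validation point 5, used limma 3.58.1 with a pseudocount of 1. The filter was a mean of 1 CPM for the former, and 1 CPM in 6 libraries for point 5. R 4.3.3, DESeq2 1.42.0 and Python 3.11.15 were also used. Scripts were tested on simulated counts. Alternatives were DESeq2, raw library sizes, no filter, limma on the deposited CPM, leaving out mice, sex, the G number and the mouse block. PCR reads carry no molecular identifiers, so intervals cover counting error only.

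The same mouse at 2 months was paired by its number in the labels. Correlations of same-mouse deviations between months 0 and 1 over 331 miRNAs were −0.13 to 0.14 in CM and −0.27 to 0.096 in Ctrl. The month 1 library most like a mouse's month 0 library was its own in 1 of 7 CM and 0 of 7 Ctrl mice. Members and the lists (p53-induced, p53-targeting, erythroid, lymphocyte, myeloid, epithelial, ciliated epithelial and hepatocyte miRNAs) were chosen with earlier results of these data known. Named miRNAs were the members, miRNAs of the same hairpin or seed, the 5 most correlated miRNAs at 10 CPM or more, and called list members. Mature sequences came from RefSeq (GRCm38.p6). T6p5 and point L were kept as separate groups.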

Additional observations from a re-analysis of the deposited data

Results flagged for a closer look

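Within groups of 4 to 10 libraries or mice, 8 of 48 sets of values had an extreme value by Dixon's test, where chance gives about 1 in 20. For miR-34a-5p these were CM mouse 3338 at month 4 (736 CPM, with the next CM mouse at 121.1 CPM) and its slope (0.73 log2 a month, the next at 0.23). For miR-34c-5p the extreme CPM values were CM 3338 at month 0 (21.2), CM 3370 at month 5 (113.2), and Ctrl 3339 at month 2 (21.1), 3342 at month 6 (21.2) and 3340 at month 9 (33.4). The slope of miR-34c-5p in Ctrl 3342 was 0.17 log2 a month, the only extreme slope of that arm, with the next at −0.04.

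The change of miR-34a-5p from month 0 to month 1 differed between the arms, by −0.55 (CM minus Ctrl, edgeR interaction, adjusted p = 0.049), and it was lower in 7 of 7 CM mice and 5 of 7 Ctrl mice. The call was lost without mice 3334 and 3335 (adjusted p = 0.089) and with the replicate block (adjusted p = 0.15).

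Validation point L, which holds 5 CM libraries and no Ctrl library, had miR-34c-5p reads above the limit that 0 reads allow. The reads were 8 in mouse 2690, 6 in 2708, 5 in 2719, 5 in 2731 and 0 in 2718 (2547 reads in all), of 41087 over the 5 libraries (584 RPM, reads per 1000000, exact Poisson 95% interval 374 to 869). No miR-34a-5p read was found there, which allows up to 73.02 RPM. For miR-34c-5p the deposited CPM at point L was 210.6, 170.7, 84.4, 98.4 and 0, in the same order of mice. Other libraries reached as much on that scale, such as 212 CPM in CM 2685 at point 1 and 328 CPM in CM 2719 at point 4. How far point L stands above the other points therefore depends on the scale. What point L stands for is not stated in the labels.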

How the results depend on the processing

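Of 204 values of miR-34a-5p and miR-34c-5p under other settings, 182 kept their direction and side of the threshold, and of 348 with 1 mouse left out, 319 did. For miR-34a-5p, the G number as a covariate gave −1.02 at month 2, limma −0.70 and sex as a covariate −0.70 at month 3, and T6p5 in place of T6 +0.15 at month 6. Ctrl month 6 against month 0 was 0.025 without 3334 and 3335. The arm by month difference lost its call with no filter (−0.65), without those mice (−0.53), by limma (−0.57) and with the replicate block by mouse (−0.55), and the mean over months 1 to 6 did with no filter (−0.51). For miR-34c-5p, the G number gave −1.30 and −1.98 at months 2 and 3, and DESeq2 −1.40 and raw library sizes −1.44 passed at month 4. The block gave −1.32 in CM and −1.21 in Ctrl for month 1 against month 0, and Ctrl without 3335 −1.13. Its arm by month difference turned negative with raw sizes (−0.15), no filter (−0.035), without 3334 and 3335 (−0.13), by limma (−0.026) and with the block (−0.072). The block changed no other call. The G number could not be fitted at month 4, and DESeq2 gave no adjusted p for miR-34a-5p there or miR-34c-5p at month 5.

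With 1 mouse left out miR-34a-5p ranged from −0.74 to −0.48 at month 3, −0.32 to 1.60 at month 4, −0.19 to 0.12 for Ctrl month 6 and −0.72 to −0.51 for the arm by month difference. The level of miR-34c-5p ranged from −0.78 to −0.39 at month 1, −1.55 to −1.25 at month 4, −0.71 to 1.83 at month 5, −1.50 to −1.03 for CM and −1.36 to −1.12 for Ctrl month 1 against 0, −0.92 to −0.43 for Ctrl month 6 and −0.35 to 0.22 for the arm by month difference. Counts of called miRNAs (month and main count in parentheses) ranged under other settings from 0 to 4 (month 0, 1), 10 to 156 (month 1, 130), from 0 (month 2, 65) to 22.2 percent against 13.5 on recovered reads, 6 to 144 (month 3, 100), 0 to 23 (month 4, 4), 0 to 53 (month 5, 0), 16 to 85 (CM month 1, 59), 0 to 18 (Ctrl month 1, 3), down to 66 (Ctrl month 6, 97) and 21 to 69 (arm by month, 44). With 1 mouse left out they ranged from 45 (without CM 3368) to 26.6 percent of 478 (without Ctrl 3349) at month 2, 0 to 14 at month 4 (highest without CM 3334), 0 to 37 at month 5 (highest without Ctrl 3335), 11 to 78 for CM month 1, 51 to 98 for Ctrl month 6 and 20 to 69 for arm by month. On recovered reads, chosen after seeing the data, edgeR called 147 at month 1 and 204 in the last libraries. The cause was not tested. Counts of 4 to 20 limit miR-34c-5p in CM at month 3.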
